A study of Mus musculus with 3 samples.

Results

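The 10 genes described here encode the NF-κB transcription factors and the proteins that hold them in check. They are the 5 subunit genes Nfkb1, Nfkb2, Rel, Rela and Relb, the 3 classical inhibitor genes Nfkbia, Nfkbib and Nfkbie, the nuclear inhibitor family gene Nfkbiz, and Tnfaip3, a feedback brake upstream of the pathway. They were chosen by name, each symbol matched 1 gene identifier, and they are 10 of the 55536 genes in the gene table. The material was regulatory T cells, a Foxp3-dependent class of CD4 cells that limits immune responses, from an adult male mouse of 4 months whose strain carries Foxp3CreERT2 and Rosa26YFP. Foxp3CreERT2 places a hormone-inducible Cre recombinase under control of the Foxp3 locus, and Rosa26YFP is a fluorescent reporter that Cre switches on. Polyadenylated RNA was sequenced in 3 libraries, named here by their technical replicate numbers 1, 2 and 3 of biological replicate 1. They form 1 group, so levels and the spread between libraries can be described, while no condition can be compared. The source label also names bone marrow as the origin of the cells. The sources used here do not give the sort, the tissue sampled or any hormone treatment.

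NF-κB proteins bind DNA as dimers. In a resting cell the classical inhibitors, the IκB proteins, keep the dimers in the cytoplasm. Signals from antigen, costimulatory and TNF family receptors activate the IκB kinase, which phosphorylates an IκB protein at paired serines and so marks it for destruction, and the freed dimer enters the nucleus. In the noncanonical arm the precursor made from Nfkb2 is trimmed to a DNA-binding subunit that pairs with the product of Relb. Several inhibitors are themselves transcribed by NF-κB, which closes a feedback loop, and Rel and Rela are known to be needed for the formation and upkeep of regulatory T cells.

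The destruction motif is what the 3 classical inhibitors share, and it is shown because transcripts were sorted below by whether they code for it. It reads Asp-Ser-Gly, then any pair of residues, then Ser. The coding bases around it come from the GENCODE M21 transcripts (mm10) at chr12:55492413-55492442 (minus strand) for Nfkbia, chr7:28766348-28766377 (minus strand) for Nfkbib and chr17:45555983-45556012 (plus strand) for Nfkbie. Capitals mark the codons of the phosphorylated serines, which are codons 32 and 36 of Nfkbia, 19 and 23 of Nfkbib, and 18 and 22 of Nfkbie, counted from the start codon.
Nfkbia: cgccacgacAGCggcctggacTCCatgaag
Nfkbib: tggtgcgacAGCggcctgggcTCTctaggt
Nfkbie: cagtgtgacTCTggcatagagTCGctgcgc

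The RefSeq promoter table (GRCm38.p6) held the 250 bases before the start for 7 of the 10 genes, all but Nfkb1, Relb and Nfkbiz, in 10 windows. The κB consensus, searched on both strands, was found in 7 of the 10 windows and in 5 of the 7 genes, against 7.25% of all 32851 windows in the table. The windows of 1 gene are near each other, so they are not independent. Sites are shown for Nfkb2, Rel, Nfkbia, Nfkbie and Tnfaip3, with the match in capitals; matches that overlap were merged. They lie at chr19:46304688-46304717 and chr19:46305695-46305724 (plus strand) for Nfkb2, chr11:23771042-23771071 (minus) for Rel, chr12:55492657-55492686 (minus) for Nfkbia, chr17:45555584-45555613 (plus) for Nfkbie and chr10:19015516-19015545 (minus) for Tnfaip3. The windows of Rela and Nfkbib held no match. Neither did the Tnfaip3 window at chr10:19011964-19012213 (minus), which lies directly before Tnfaip3-202, the leading transcript of that gene (below). The Tnfaip3 site shown lies before Tnfaip3-201, a minor transcript in these libraries.
Nfkb2, first window: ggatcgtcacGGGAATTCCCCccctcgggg
Nfkb2, last window: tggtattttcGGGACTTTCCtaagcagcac
Rel: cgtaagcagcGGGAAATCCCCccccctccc
Nfkbia: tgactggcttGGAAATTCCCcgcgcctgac
Nfkbie: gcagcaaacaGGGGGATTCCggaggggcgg
Tnfaip3: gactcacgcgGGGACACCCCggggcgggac
The match in Nfkbia begins 29 bases before the start, and that in Rel 92 bases before it. These are matches of letters in a window, and binding was not measured.

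The libraries held 9299054, 9188612 and 8284381 expected counts in genes. Of the defining markers, all 5 of regulatory T cells and all 5 of T cells were at 1 TPM (a level normalised for transcript length and library depth) or more in every library. All 10 B cell markers were too, with sums of 2369, 1857 and 2024 TPM, while 0 of 6 neutrophil markers were. The neutrophil markers summed to 34.8, 0 and 3.74 TPM in libraries 1, 2 and 3. In library 1 Ngp was at 17.6, S100a9 at 8.45, S100a8 at 7.96 and Ly6g at 0.76 TPM. Mpo was at 0 there, and Elane was at 0 in all 3 libraries. The 5 erythroid markers (3 of 5 at 1 TPM throughout) summed to 1681, 9.02 and 1495 TPM in libraries 1, 2 and 3. The 5 plasma cell markers (3 of 5) summed to 1949, 236 and 1309 TPM. Most of the plasma cell sum was Igkc, at 1841.75, 200.6 and 1203.18 TPM, and Jchain had 98.47, 4.42 and 79.72 TPM. Xbp1 differed from them in order, being lowest in library 1, at 8.2, 30.71 and 26.02 TPM. Sdc1 and Tnfrsf17 were below 1 TPM in every library. The macrophage and monocyte list (4 of 7 at 1 TPM throughout) summed to between 18.8 and 40.3 TPM, and the dendritic list (1 of 6) to between 2.96 and 5.30. B cells and myeloid cells express NF-κB genes as well, and the part of such cells in the values below was not tested. In bulk RNA fewer cells of a type and less RNA per cell cannot be told apart. Library 1 also stood apart by gene length: against the mean of the libraries, the median gene of the shortest length bin was higher there by 0.37 and that of the longest lower by 0.22 on the log2 scale.

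All 10 genes were detected, which means 1 TPM or more in every library, and they spanned from Nfkbia at 469.8 ± 77.8 TPM (SD, n = 3) to Relb at 9.63 ± 1.82 TPM. The median of the 10120 detected protein-coding genes was 20.1 TPM. Nfkbia lay at percentile 97.5 of those genes and Relb at percentile 31.3. The order of the upper 5, Nfkbia, Rela, Nfkb1, Nfkbib and Nfkbie, held in all 3 libraries with no overlap between the ranges of neighbours. From Nfkbie down, each gene overlapped the next in its range over libraries. Within a library, Tnfaip3 lay above Nfkbiz, Nfkbiz above Rel and Nfkb2 above Relb in all 3, while Nfkbie lay above Tnfaip3 and Rel above Nfkb2 in 2 of 3. SD and p-values here reflect nothing beyond the spread of these 3 libraries, named technical replicates in the labels. The sources used here do not say whether they came from 1 RNA pool, separate sorts or separate mice. The erythroid sums and the Igkc and Jchain levels above differ many-fold between them.

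**Figure D1:**
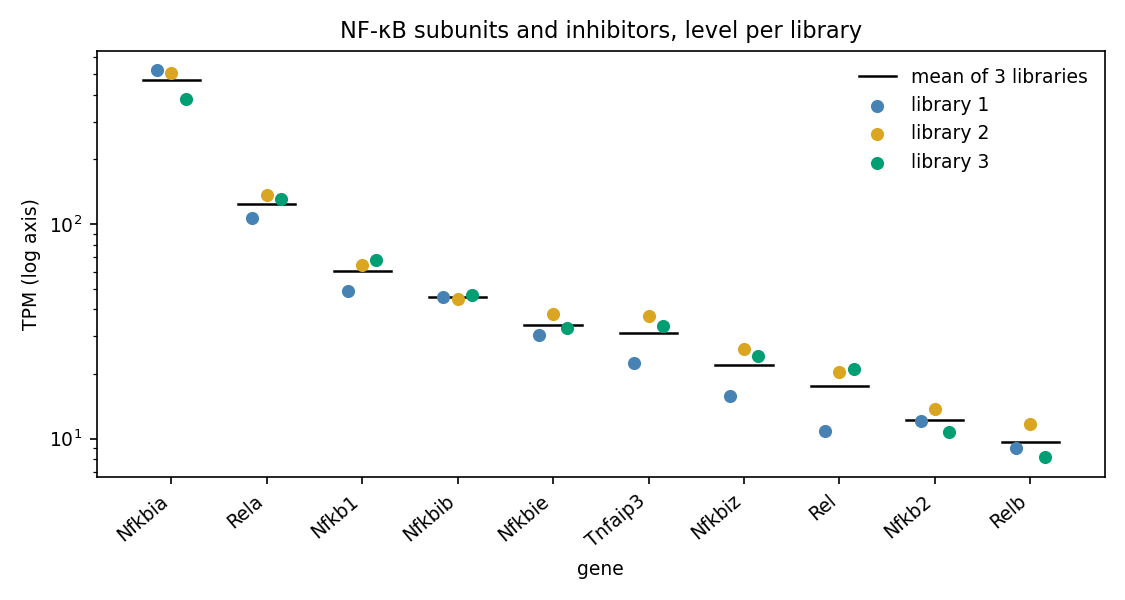
Level of the 10 genes in TPM (vertical log axis) in libraries 1, 2 and 3 (points), with the mean as a line. Nfkbia sits above all others, Rela next, and library 1 is the lowest point for Rela, Nfkb1, Nfkbie, Tnfaip3, Nfkbiz and Rel.

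Whether the libraries differed by more than counting error was tested for every gene with a chi-square test of its counts against the scaled library totals, adjusted over all genes tested. The test called 7099 of 13071 genes, or 54.3%, and 6 of the 10 NF-κB genes: Nfkb2, Rel, Nfkbia, Nfkbib, Nfkbiz and Tnfaip3. The share of called genes among the 10 is close to that background, and the median ratio of the highest to the lowest library was 1.29 for the 10 genes and 1.37 for all genes tested. With libraries scaled within 20 bins of gene length, the test called 5833 genes (44.6%) and 5 of the 10, namely Nfkb2, Rel, Rela, Nfkbia and Nfkbie. Without library 1 it called 2142 of 12273 genes (17.5%), and of the 10 only Nfkb2 and Nfkbia. Counts of the second quantifier gave 8250 of 17231 genes (47.9%) and 9 of the 10, with Rela (adjusted p = 0.0127), Relb (adjusted p = 0.0419) and Nfkbie (adjusted p = 0.00825) added.

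Among the subunits, Rela encodes the main transactivating subunit of the canonical pathway (chromosome 19, 5637483 to 5648130, plus strand). It was the highest, with 106, 137 and 130.2 TPM in libraries 1, 2 and 3. Library 1 was the lowest on this scale, while the scaled counts (2175, 2285 and 1940 before scaling) differed by only 1.07-fold, with an adjusted p of 0.159 in the chi-square test. Scaling within length bins gave 1.15-fold, with library 1 the highest and an adjusted p of 5.01e-05. Its full-length transcript Rela-201, which codes for 549 residues, took 99.2%, 93.6% and 92.6% of the TPM of the gene.

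Nfkb1 encodes a precursor whose front part becomes a DNA-binding subunit and whose ankyrin repeats act as an inhibitor (chromosome 3, 135584655 to 135691547, minus strand). Its levels were 48.6, 64.0 and 68.2 TPM, lowest in library 1, and its counts were 949, 1073 and 1017. The scaled counts differed by 1.13-fold, which did not pass the test (adjusted p = 0.0566, chi-square test), and passed without library 2 (adjusted p = 0.0174). Nfkb1 stood out by its transcripts. Only 26.2% ± 2.23 of its TPM fell on transcripts annotated as protein-coding, and of 9390 detected protein-coding genes with 2 or more annotated transcripts just 6.44% had less. The median over those genes was 84.2%.

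The transcripts with the full reading frame of 971 codons, Nfkb1-201 and Nfkb1-206, took 2.82%, 2.69% and 2.77% of its TPM. The second quantifier gave them 4.91%, 3.78% and 5.70%. The largest shares went to partial models. Nfkb1-207, annotated as a target of nonsense-mediated decay, starts at exon 16 and skips exon 22 (67 bases), and took 36.0%, 22.4% and 23.9%. Nfkb1-203, an incomplete coding model that starts within exon 13 and skips exon 24 (178 bases), took 25.7%, 23.2% and 21.3%. Nfkb1-204 holds exons 1 to 12 and runs 1825 bases into the next intron, and took 22.7%, 23.5% and 20.8%. Nfkb1-202 and Nfkb1-208, both annotated as retained introns, took 4.30%, 6.69% and 13.6%, and 6.30%, 10.2% and 8.39%.

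**Figure D2:**
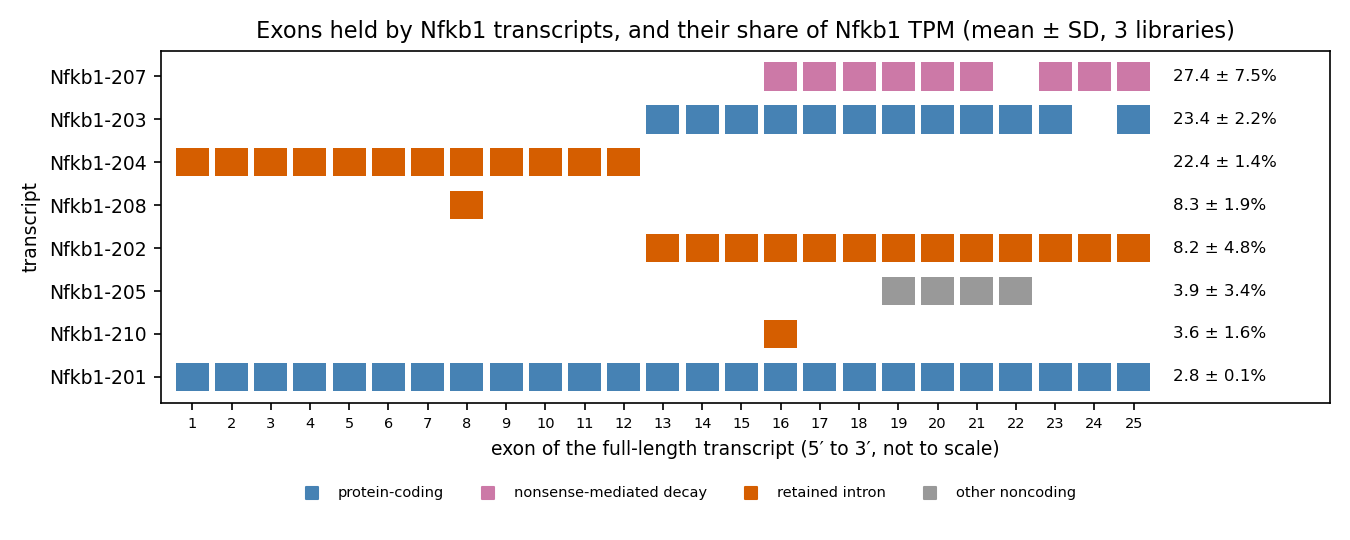
Exons of the full-length transcript Nfkb1-201 (horizontal axis, numbered 5′ to 3′) that each Nfkb1 transcript holds in whole or in part, for transcripts with a share above 0, with the share of Nfkb1 TPM at the right (mean ± SD, 3 libraries). Colours give the annotated class; the 3 leading transcripts each cover only 1 end of the gene, and the full-length Nfkb1-201 is the lowest at 2.76%.

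Because a partial model is shorter than the full transcript, the same reads give a higher TPM when assigned to it. Dividing the counts of Nfkb1 by the length of Nfkb1-201 gave 37.0 ± 6.27 TPM in place of 60.3 ± 10.4, and counting only protein-coding transcripts gave 15.6 TPM. On the latter scale the mean of Nfkb1 would lie below those of Nfkbib, Nfkbie, Tnfaip3, Nfkbiz and Rel. Nfkb1-203 and Nfkb1-207 hold no base that is absent from all other Nfkb1 transcripts, so reads separate them only by the junctions they skip. Whether the partial transcripts exist as molecules was not tested.

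Rel encodes the lymphocyte-rich subunit c-Rel (chromosome 11, 23736847 to 23770970, minus strand). It had 10.9, 20.4 and 21.2 TPM, with library 1 well below the other libraries. The counts were 641, 1023 and 961, and the scaled counts differed by 1.57-fold (adjusted p = 3.83e-19, chi-square test). Rel has a lone transcript, Rel-201, of 7466 bases, the longest of the 10 genes. Library 1 was low for long genes in general: the median gene of the same length bin deviated there by -0.22 and Rel by -0.41 on the log2 scale. Scaled within length bins, Rel differed by 1.22-fold (adjusted p = 0.000372), and without library 1 by 1.06-fold (adjusted p = 0.400). The ratio of Rel to Rela in TPM was 0.103, 0.149 and 0.163, or 0.138 ± 0.0316.

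**Figure D3:**
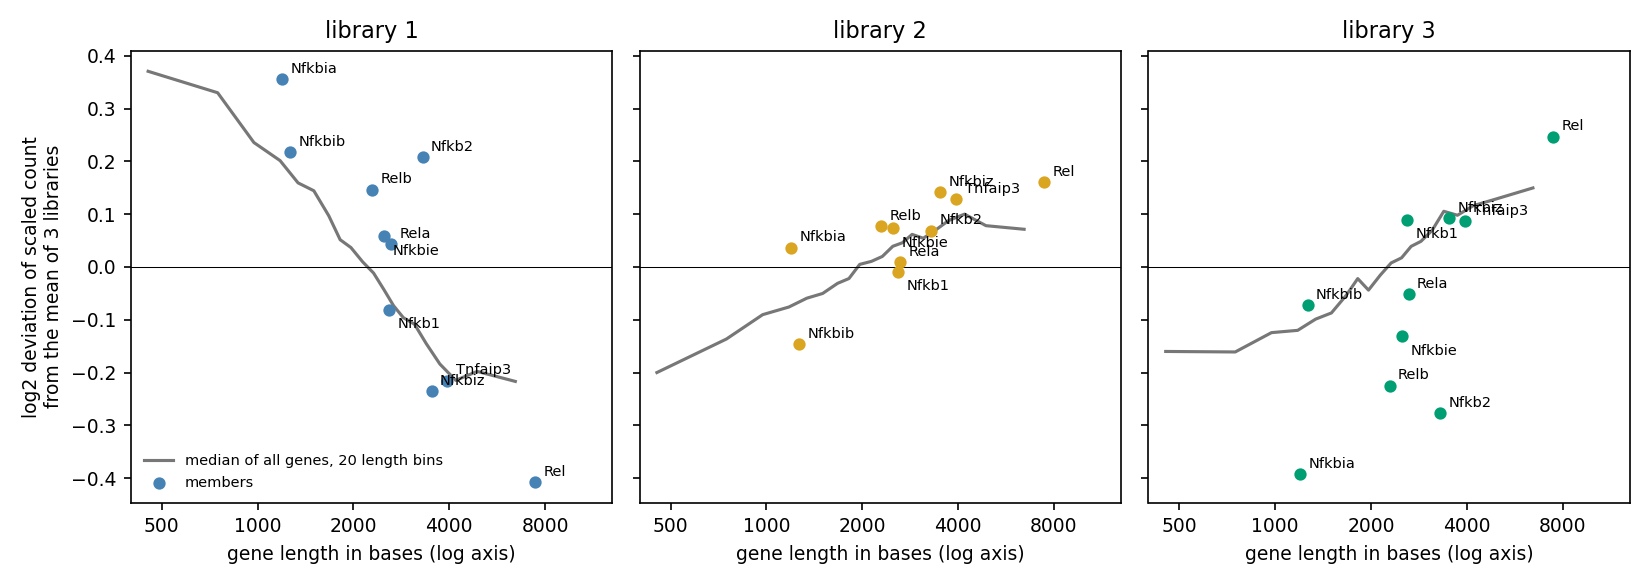
Deviation of scaled counts from the mean of the 3 libraries (vertical, log2) against gene length in bases (horizontal, log axis), 1 panel per library; the line is the median of all genes tested in 20 length bins and the points are the 10 genes. In library 1 the line falls from 0.37 to -0.22, with Rel at -0.41 and Nfkbia at 0.36, and Nfkb2 lies above the line there and below it in library 3.

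The noncanonical subunits had the lowest mean levels of the family, although Nfkb2 lay above Rel in library 1. Nfkb2 encodes the noncanonical precursor (chromosome 19, 46304320 to 46312385, plus strand) and had 12.0, 13.7 and 10.8 TPM. Its counts were 303, 296 and 206, lowest in library 3, and the scaled counts differed by 1.40-fold (adjusted p = 0.00209, chi-square test). This difference was larger within length bins, at 1.67-fold, with library 1 the highest (adjusted p = 6.41e-07, chi-square test). It was lost without library 3, where the remaining libraries differed by 1.11-fold (adjusted p = 0.308). Transcripts that code for the full 899 residues took 77.3%, 66.0% and 81.3% of Nfkb2 TPM. Most of this was Nfkb2-204, with 72.0%, 51.8% and 73.4%, and Nfkb2-202 took 5.36%, 14.2% and 7.81%. The second quantifier gave Nfkb2-204 58.8%, 25.7% and 56.6%, and Nfkb2-202 4.54%, 13.9% and 25.7%. In library 2 it gave Nfkb2-201, at 0% above, 25.4% and Nfkb2-206 31.5%, so Nfkb2-204 did not lead there. Nfkb2-206, which starts upstream of the others and codes for 878 residues, took 22.7%, 29.5% and 18.8%. Nfkb2 overlaps the opposite-strand genes AC114539.1 (17.7 TPM) and Psd (3.88 TPM), and reads of the shared bases cannot be told apart, since the sources used here do not say whether counting used strand.

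Relb encodes the noncanonical partner of Nfkb2 (chromosome 7, 19606217 to 19629438, minus strand). It had 9.06, 11.7 and 8.16 TPM and 155, 159 and 114 counts. The scaled counts differed by 1.29-fold, which did not pass the test (adjusted p = 0.140, chi-square test). Nfkb2 and Relb together made up 11.3%, 10.3% and 7.93% of the TPM of the 5 subunits, or 9.83% ± 1.72.

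Relb transcripts differ by an exon of 9 bases (chr7:19622926-19622934), which adds 3 codons, and the assignment of reads switched with this exon between libraries. The spliced bases around it are shown 5′ to 3′ from the GENCODE M21 transcripts, with the 9 bases in capitals; the flanking bases lie at chr7:19627923-19627946 and chr7:19619819-19619842, minus strand.
Relb-202: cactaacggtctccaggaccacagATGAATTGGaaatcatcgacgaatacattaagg
Relb-201: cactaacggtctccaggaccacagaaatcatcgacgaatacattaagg
Relb-203 has other annotated splice sites there, and its spliced sequence is nonetheless identical to Relb-202, of which it lacks only 6 bases at the end, so reads cannot separate these transcripts outside those bases. Relb-201, without the exon, took 77.1% of Relb TPM in library 1 and 0% in libraries 2 and 3. Relb-202 and Relb-203 together took 0%, 80.6% and 78.6%. The second quantifier gave the latter pair 10.2%, 70.2% and 65.0%, the same order. The retained-intron transcript Relb-206, which like Relb-201 touches 11 of the 12 exons of Relb-202, took 17.2%, 0.02% and 13.3%. The remaining transcripts were not sorted by the exon, so the switch is shown for Relb-201, Relb-202 and Relb-203 alone.

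**Figure D4:**
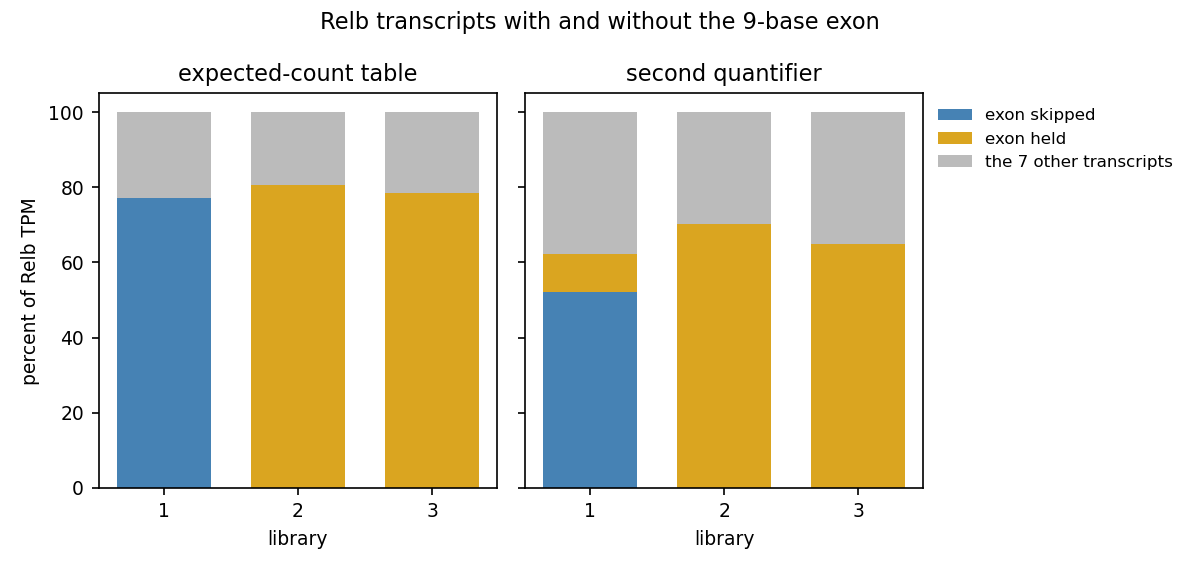
Percent of Relb TPM (vertical) in Relb-201 (9-base exon skipped), in Relb-202 and Relb-203 (exon held) and in the remaining transcripts, per library (horizontal), from the expected-count tables and from the second quantifier. In the expected-count tables library 1 has 77.1% on Relb-201, and libraries 2 and 3 have 80.6% and 78.6% on the other pair.

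Few reads bear on this exon. Under even coverage, only about 10.3, 12.0 and 7.46 fragments of Relb would be expected to touch the exon in libraries 1, 2 and 3. The authors' deposited intervals, whose confidence level the sources used here do not give, ran in library 1 from 0.00580 to 5.08 TPM for Relb-201 and from 5.30e-05 to 4.14 TPM for Relb-202. The estimate for Relb-201 there, 6.98 TPM, lay above its own upper bound. The intervals of Relb-201 and Relb-202 also overlapped in the other libraries. They ran from 0.000136 to 4.03 against 3.94e-05 to 5.76 TPM in library 2. In library 3 they ran from 3.47e-06 to 3.89 against 0.000359 to 4.26 TPM. Summed, Relb-201, Relb-202 and Relb-203 were stable, at 77.1%, 80.6% and 78.6% of Relb TPM.

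Among the inhibitors, Nfkbia encodes IκBα, the fast feedback inhibitor of the canonical pathway (chromosome 12, 55489410 to 55492647, minus strand). It had 521, 508 and 380.3 TPM, lowest in library 3, from 4229, 3647 and 2398 counts. The scaled counts differed by 1.68-fold between libraries 1 and 3 (adjusted p = 2.35e-90, chi-square test). Nfkbia was called in all 9 settings tried, with folds from 1.26 to 1.74, and within length bins it differed by 1.34-fold. It is a short gene, and in library 1 the median gene of its length bin deviated by 0.20 and Nfkbia by 0.36 on the log2 scale. In library 3 these values were -0.12 and -0.39.

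Nfkbia TPM was divided between 2 transcripts. Nfkbia-201, which codes for 314 residues with the destruction motif, took 54.6%, 59.2% and 55.9%, and the rest fell on Nfkbia-202, annotated as a retained intron, with 45.4%, 40.8% and 44.1%. Of the 9390 genes with several transcripts, 9.65% had a larger share in retained-intron transcripts, and the median was 4.98%. Nfkbia-202 has 701 bases and holds exons 2 to 5 in whole or in part. Its only bases outside Nfkbia-201 are the 32 at its start, at the end of the first intron, shown here in capitals with the next 30 bases of exon 2 (chr12:55491749-55491810, minus strand).
Nfkbia-202: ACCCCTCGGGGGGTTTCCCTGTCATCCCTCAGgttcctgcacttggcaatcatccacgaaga
By counts the share of Nfkbia-202 was 23.8%, 20.5% and 22.7%, since TPM divides by its shorter length. The second quantifier gave it 42.5%, 36.1% and 39.6% of TPM. With all counts divided by the length of Nfkbia-201 the level was 342 ± 58.1 TPM, and on protein-coding transcripts alone 266 TPM; on either scale Nfkbia was still the highest of the 10.

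Nfkbib encodes IκBβ (chromosome 7, 28758251 to 28767512, minus strand). It had 45.8, 44.8 and 46.6 TPM, the tightest level of the 10 genes. Its scaled counts nevertheless differed by 1.29-fold (adjusted p = 0.00328, chi-square test), from 403, 337 and 314 counts, with library 1 the highest. Within length bins the fold was 1.11 (adjusted p = 0.471, chi-square test), and without library 1 it was 1.05 (adjusted p = 0.717). The part of gene length in this difference was not tested. Nfkbib-202, which codes for 359 residues with the motif, took 97.2%, 96.7% and 97.8%. Over the length of its longest transcript, Nfkbib-201, the level would be 26.4 ± 0.404 TPM. Nfkbib overlaps the opposite-strand gene Sirt2 (94.4 TPM) near its start.

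Nfkbie encodes IκBε (chromosome 17, 45555703 to 45563169, plus strand). It had 30.2, 38.0 and 32.7 TPM from 564, 613 and 471 counts, highest in library 2. The scaled counts differed by 1.15-fold and did not pass the test (adjusted p = 0.0726, chi-square test), while within length bins they did (1.19-fold, adjusted p = 0.0403). Transcripts that code for the motif took 87.5% ± 3.85 of its TPM. They were Nfkbie-201 with 85.6%, 72.0% and 81.6% and Nfkbie-203 with 4.91%, 11.2% and 7.31%, and the retained-intron transcript Nfkbie-202 took 9.48%, 16.8% and 11.1%. For comparison, the motif share was 56.6% ± 2.36 for Nfkbia and 100% in every library for Nfkbib. The motif was sought in annotated reading frames alone. In these genes the motif share is therefore the same as the protein-coding share and adds nothing to it.

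The 3 classical inhibitors together outweighed the 5 subunits by 3.20, 2.39 and 1.93 times in TPM, or 2.51 ± 0.643. Nfkbia made up most of the inhibitor sum of 597, 591 and 459.6 TPM, and the subunit sum was 187, 247 and 239 TPM. In TPM, library 1 thus had the highest ratio with the lowest subunit sum, and library 3 the lowest ratio with the lowest inhibitor sum. This reading is tied to the TPM scale. By scaled counts library 1 was the highest for Nfkbia (1.68-fold) and Rela (1.07-fold). It was the lowest for Nfkb1 (1.13-fold) and Rel (1.57-fold). Nfkbia is short and Rel long, and the part of the length skew of library 1 in the ratio was not tested. Counting protein-coding transcripts alone, the ratio of inhibitors to subunits in TPM was 2.01 ± 0.373. It is a ratio of RNA levels; protein was not measured.

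Nfkbiz encodes IκBζ, a nuclear member of the inhibitor family that can also activate genes (chromosome 16, 55811375 to 55838899, minus strand). It had 15.7, 26.3 and 24.1 TPM from 425, 594 and 508 counts, lowest in library 1. The scaled counts differed by 1.30-fold (adjusted p = 0.000252, chi-square test), but within length bins by 1.12-fold (adjusted p = 0.290) and without library 1 by 1.04-fold (adjusted p = 0.748). Most of its TPM (74.8%, 80.5% and 84.9%) fell on Nfkbiz-204, which starts inside the gene and codes for the same 728 residues as the full-length Nfkbiz-201. Nfkbiz-203, which codes for 629 residues, took 19.5%, 11.6% and 11.5%. The second quantifier gave Nfkbiz-204 less, at 53.2%, 79.5% and 60.4%. It gave 20.5%, 0.02% and 24.7% to Nfkbiz-206, a noncoding transcript of 188 bases. Its share on protein-coding transcripts was 68.3%, 85.6% and 66.3%.

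Tnfaip3 encodes the ubiquitin-editing enzyme that shuts off signalling from TNF and antigen receptors (chromosome 10, 19000910 to 19015657, minus strand). It had 22.4, 37.4 and 33.5 TPM from 687, 938 and 807 counts, lowest in library 1. The scaled counts differed by 1.27-fold (adjusted p = 1.22e-05, chi-square test), but within length bins by 1.04-fold (adjusted p = 0.776) and without library 1 by 1.03-fold (adjusted p = 0.736). Transcripts with all 775 codons took 80.0% ± 5.01 of its TPM, led by Tnfaip3-202 with 82.9%, 69.5% and 67.3%. Tnfaip3-201, which has another first exon, took 0%, 4.64% and 15.5%. Tnfaip3-204, a short coding model, took 6.29%, 12.5% and 0%, from at most 8.97 counts.

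**Figure D5:**
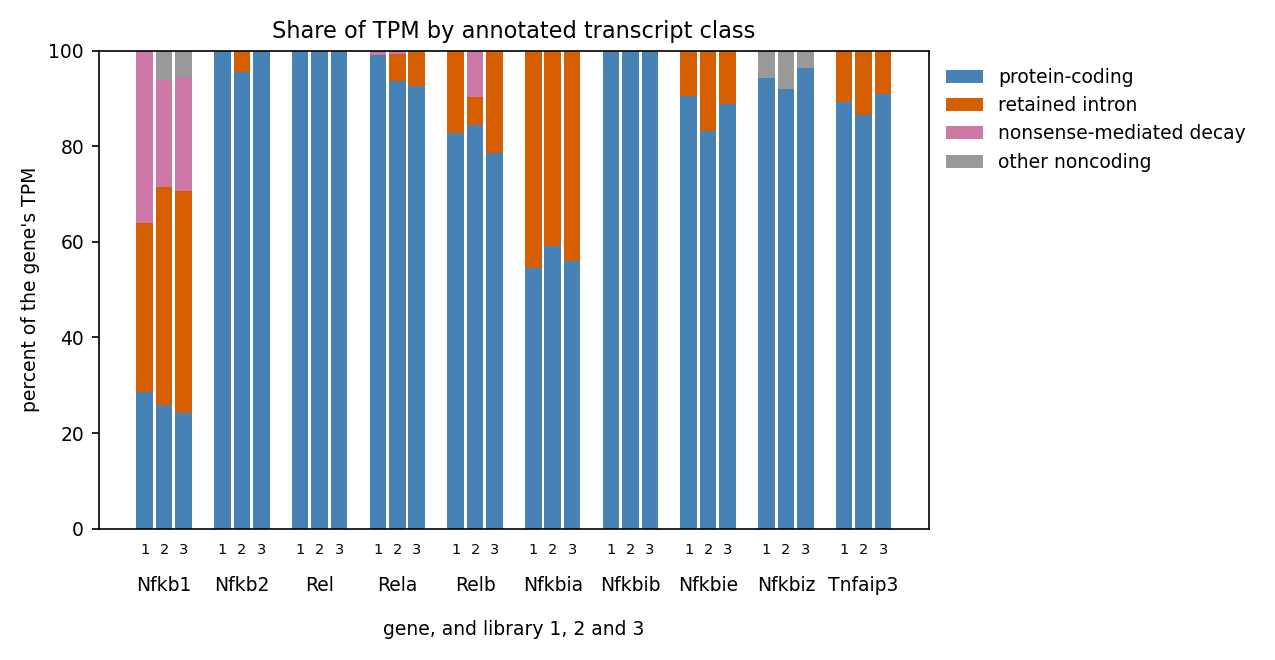
Percent of each gene's TPM (vertical) by annotated transcript class, in libraries 1, 2 and 3 (horizontal), from the expected-count tables. Nfkb1 and Nfkbia stand apart, with protein-coding means of 26.2% and 56.6%, while Nfkb2, Rel, Rela, Nfkbib and Nfkbiz are above 90% in every library.

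Over all 10 genes, protein-coding transcripts took 65.9%, 69.0% and 68.5% of the summed TPM. This sum is weighted by Nfkbia. The median share over the 9 members with several transcripts was 89.0%, against 84.2% over the 9390 genes.

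The older gene table, with counts for the GENCODE M4 annotation, gave different weights to the same genes. Relative to the median gene, Rel had 0.32 to 0.38 of the M21 counts, from 245, 459 and 399 counts in the M4 table. Nfkb1 had 0.69 to 0.77, Tnfaip3 0.65 to 0.80 and Nfkbie 0.78 to 0.83. Nfkbib had 1.58 to 1.66, Nfkb2 1.56 to 1.64 and Nfkbia 1.49 in each library. These values lie within the range from the 5th to the 95th percentile of all genes, 0.263 to 1.68. They were not all alike between libraries. Rel, Tnfaip3 and Nfkbiz (1.00, 1.21 and 1.21) were lowest in library 1. Their folds with M4 counts were 1.78, 1.52 and 1.58, against 1.57, 1.27 and 1.30 with M21 counts. With M4 counts the test called 8 of the 10, with Nfkb1 (adjusted p = 0.000619) and Relb (adjusted p = 0.00734) added, and 6992 genes in all (63.8%).

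The pathway around these genes was expressed nearly throughout. Of 47 further pathway genes, 46 were detected, with a median of 32.1 TPM, and 29 of 46 tested differed between libraries, against 54.3% of all genes tested. Nfkbil1 was the exception, at 0.68, 1.60 and 0.89 TPM. In the IκB kinase complex, Ikbkb, the kinase that acts on IκB proteins, had 173 ± 46.3 TPM, the regulatory subunit Ikbkg 44.2 ± 8.75 and Chuk, the kinase of the noncanonical arm, 32.1 ± 10.7. All 3 differed between libraries and were lowest in library 1 by TPM, and with scaling within length bins Ikbkg no longer passed. Map3k14, the noncanonical kinase upstream of Chuk, had 34.5 ± 10.2 TPM, and Otud7b, a deubiquitinase of that arm, was the lowest of its list at 8.15 ± 2.17. Of the kinases related to that complex and their adaptor, Tank was the highest at 205 ± 3.95 TPM and Tbk1 the lowest at 78.0 ± 18.6. Nfkbid, a nuclear inhibitor family gene, led the other inhibitor genes at 31.3 ± 7.26 TPM. In the antigen receptor arm the costimulatory receptor Cd28 was the highest at 212 ± 13.3 TPM and Tab3 the lowest at 1.61 ± 0.416, and in the TNF receptor arm Birc3 was the highest at 123 ± 18.2 and Ripk1 the lowest at 8.84 ± 2.24. Among other brakes, Pdlim2 had 174 ± 11.1 TPM and Zc3h12a 2.51 ± 0.514.

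Known NF-κB target genes were also expressed, 22 of 23 of them in every library, with a median of 75.2 TPM. The highest were Traf1 at 311 ± 33.4 TPM, Il2ra, the interleukin-2 receptor chain that marks regulatory T cells, at 304 ± 83.0, and the transcription factor Irf1 at 302 ± 10.9. Ier3 was the lowest detected at 1.36 ± 0.303, and the chemokine gene Ccl3 missed detection at 3.56, 0.49 and 1.37 TPM. The test called 17 of the 21 targets with enough counts, beside 7099 of 13071 genes (54.3%) in all. Target genes respond to many factors, and their levels were not used to infer NF-κB activity.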

How the data were processed

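Polyadenylated RNA of 3 libraries of 1 group was analysed. The authors deposited, per library, a gene table with expected counts, TPM and FPKM from an alignment to the mm10 transcriptome with GENCODE M21. A transcript table deposited with it adds the percent of gene TPM per transcript and interval bounds in TPM units, listed here as a signal, per the file headers. The authors also deposited estimated counts and TPM of a second quantifier, and whole-number counts per gene for GENCODE M4. Annotations and build are per the deposited readme. The sources used here do not give tool versions or strandedness. FPKM was not used.

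Expected counts were rounded. Genes with 30 or more counts over the libraries entered a chi-square test of homogeneity against TMM-scaled totals (edgeR 4.0.16, R 4.3.3), with Benjamini-Hochberg adjustment over all genes and a threshold of 0.05. The fold is the highest over the lowest scaled count. Detection means 1 TPM in every library. The test was checked on simulated counts. Alternatives were DESeq2 1.42.0 size factors, 20 length bins, no count filter, M4 counts, the second quantifier, posterior mean TPM, protein-coding transcripts only, each library left out, and, added after seeing the data, counts over the length of the principal transcript. Named are all 10 genes, transcripts with 10% or more of a gene's TPM in any library, transcripts of a set of transcripts, and the highest and lowest of each pathway and target list. The members and gene lists were chosen with earlier results of these data known. tRNA-like and spike-in entries (0.117% to 0.135% of counts) were left out. Mean ± SD is over 3 libraries. Calculations used Python 3.11.15, scipy 1.17.1 and pandas 2.3.3.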

Additional observations from a re-analysis of the deposited data

How the results depend on the processing

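The 10 genes were detected in every alternative, including a threshold of 5 TPM. The order of levels changed in part: on protein-coding transcripts Nfkb1 (15.6 TPM) fell below Nfkbib (45.7) and Nfkbie (29.3), and over the length of the principal transcript Nfkbib (26.4) fell below Nfkbie (34.6). By the second quantifier the mean of Nfkbiz (16.7 TPM) lay above those of Nfkbie (16.4) and Tnfaip3 (15.5). There Nfkbiz exceeded Tnfaip3 in library 1 (11.9 against 10.3) and library 3 (20.8 against 16.3), but not in library 2 (17.4 against 19.8). The library with the highest scaled count also changed, for Nfkbie from 2 to 1 with length bins and the second quantifier, and with M4 counts for Rela from 1 to 2, for Rel from 3 to 2 and for Tnfaip3 from 2 to 3. The number of genes that differed between libraries ranged from 2142 to 5980 when each library was left out in turn, against 7099, and the number of NF-κB genes from 2 to 7, against 6. Without libraries 1, 2 and 3 these were 2, 7 and 5 NF-κB genes, beside 17.5%, 49.0% and 46.3% of all genes tested. The second quantifier gave 9, beside 47.9%. The noncanonical percent of subunit TPM was 11.7% on protein-coding transcripts and 11.6% over the length of the principal transcript, against 9.83%; Nfkb1 was at 37.0 TPM on the latter scale, against 60.3. TPM of the second quantifier was lower for all 10 genes, with a median ratio of 0.560 over detected genes and 0.485 to 0.762 over the 10, beside a transcript, Gm29013-201, that took 19.1% to 26.1% of its TPM. Relb had the fewest counts of the 10, 114 to 159 per library; the power of the test at that depth was not tested.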
